A study of Mus musculus with 2 samples.

Results

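Boundaries that lay at the start of exactly 1 protein-coding gene were examined in a domain boundary list from mouse olfactory neuron precursors. A boundary was taken when its interval of 5 kb, extended by 10 kb on each side, held a single protein-coding gene start, the 5′ end of the gene record in GENCODE M21. Of 7841 boundaries on chromosomes 1 to 19 and X, 1972 met this rule (25.1%, 95% Wilson interval 24.2 to 26.1), each at a different gene. They are called single-start boundaries here. A further 715 boundaries held several starts and 5154 held none.

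The study profiled immediate neuronal precursor cells, the dividing progenitors that give rise to olfactory sensory neurons. The animals were FVB/NTac pups, males and females mixed, that carried the Ngn1-GFP reporter, named for a proneural transcription factor gene, and the cells were purified from olfactory epithelium by FACS. In situ Hi-C, which joins and sequences DNA ends that lie close together in the nucleus, was done with the restriction enzyme DpnII after fixing in 1% formaldehyde. The 2 biological replicates held 2200000 and 2100000 cells, and both were combined before boundaries were called. The labels describe both alike and untreated, and no other group was analysed here. A boundary list from pooled cells describes their average. The files examined hold no expression values, so the labelled cell type was not checked against its markers here.

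A domain boundary is a place across which contacts between neighbouring stretches of DNA are depleted. In mammals many boundaries hold sites of CTCF, a zinc finger protein that stops the loop-extruding cohesin ring when it meets the site in one orientation. Promoters of active genes, often lying in CpG islands, are the other feature commonly found there. In the olfactory epithelium, precursors leave the cell cycle, extend an axon and come to express a single odorant receptor gene, so genes for these steps were listed beside housekeeping families.

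The sequence just before the start is shown for the 6 highest-scoring single-start boundaries that hold the start inside their interval, since in these cases the start itself falls within the boundary interval. Each line gives the 200 bases upstream of the gene start, read 5′ to 3′ along the gene, from GRCm38. Capitals mark matches, on either strand, to any of the promoter motifs spelled out further on, of which the GC box, the CCAAT box and the LIM homeodomain core occurred here.
Eif1, chr11:100319685-100319884, plus strand: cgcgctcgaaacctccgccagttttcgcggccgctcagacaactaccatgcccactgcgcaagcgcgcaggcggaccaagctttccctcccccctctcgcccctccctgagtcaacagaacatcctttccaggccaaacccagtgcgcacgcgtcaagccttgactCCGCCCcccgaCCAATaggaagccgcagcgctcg
Fstl5, chr3:76074070-76074269, plus strand: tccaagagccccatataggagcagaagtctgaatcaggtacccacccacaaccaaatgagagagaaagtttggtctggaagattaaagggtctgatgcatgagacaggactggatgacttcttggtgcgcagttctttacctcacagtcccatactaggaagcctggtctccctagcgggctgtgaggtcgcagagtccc
Cep112, chr11:108424992-108425191, plus strand: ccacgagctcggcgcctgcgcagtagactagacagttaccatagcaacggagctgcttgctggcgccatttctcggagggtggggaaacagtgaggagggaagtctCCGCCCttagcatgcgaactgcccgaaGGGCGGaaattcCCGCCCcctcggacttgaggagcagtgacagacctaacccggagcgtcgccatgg
Rab12, chr17:66519730-66519929, minus strand: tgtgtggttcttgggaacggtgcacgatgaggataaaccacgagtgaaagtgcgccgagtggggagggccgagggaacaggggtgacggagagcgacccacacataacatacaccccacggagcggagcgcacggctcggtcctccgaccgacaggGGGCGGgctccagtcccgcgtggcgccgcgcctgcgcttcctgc
Lin7c, chr2:109890653-109890852, plus strand: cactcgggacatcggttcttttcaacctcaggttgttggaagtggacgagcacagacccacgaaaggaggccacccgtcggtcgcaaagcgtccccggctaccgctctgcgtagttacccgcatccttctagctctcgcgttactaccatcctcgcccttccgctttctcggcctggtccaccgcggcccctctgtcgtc
Zfp982, chr4:147492217-147492416, plus strand: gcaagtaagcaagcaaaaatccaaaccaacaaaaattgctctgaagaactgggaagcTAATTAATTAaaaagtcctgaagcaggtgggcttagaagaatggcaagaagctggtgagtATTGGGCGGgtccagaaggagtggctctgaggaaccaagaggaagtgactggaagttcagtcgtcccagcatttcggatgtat
The first 5 of these sequences had between 51.5% and 67% G and C, and the Zfp982 promoter had 45.5%. The Rab12 sequence held 22 CpG dinucleotides, those of Eif1 and Lin7c 20 each and that of Cep112 16, while those of Fstl5 and Zfp982 held 3 each. Both kinds, rich and poor in CpG, were thus among the promoters at the highest scores. Eif1 encodes a factor that selects the start codon in translation, Cep112 a centrosomal protein, Rab12 a small GTPase of membrane traffic, and Lin7c a scaffold of cell junctions and synapses. Fstl5 encodes a secreted follistatin-like protein and Zfp982 a zinc finger protein. In the Zfp982 sequence a CCAAT match on the opposite strand overlapped the GC box, and the homeodomain core occurred in overlapping copies.

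The CTCF consensus matches beside 8 of the highest-scoring single-start boundaries that had one are shown next, because CTCF sites are the best known sequence feature of boundaries. Each line gives 30 bases of GRCm38 read in the orientation of the motif, with the 12-base core of the motif in capitals.
Rab12, chr17:66508231-66508260, minus strand: tcatggacaCCAGCAGAGGGCatcaggccc
Ttc12, chr9:49494111-49494140, plus strand: ttaacatagCCACTAGATGGCagtcccagt
Cited2, chr10:17733232-17733261, plus strand: actaactggCCACCAGGTGGCgctaaggtc
Col12a1, chr9:79723277-79723306, minus strand: ttatctcttCCACTAGAGGGCgcctgtcac
Plk2, chr13:110382718-110382747, plus strand: caacattgaCCAGCAGAGGGCagtcgaagt
Mettl2, chr11:105124205-105124234, plus strand: ctttatcgtCCACTAGGGGGCccctcgatt
Olfr279, chr15:98509599-98509628, minus strand: actcagaggCCAGCAGAGGGCttctgatct
Smndc1, chr19:53394775-53394804, plus strand: tcaaaacttCCACTAGGTGGCagtcaggat
The match lay on the same strand as the gene for Rab12, Cited2, Col12a1, Plk2 and Mettl2 and on the opposite strand for Ttc12, Olfr279 and Smndc1. Those of Ttc12, Col12a1, Plk2, Mettl2 and Smndc1 lay upstream of the gene start, by 7.9, 4.46, 12.3, 2.21 and 4.21 kb. Those of Rab12, Cited2 and Olfr279 lay 11.5, 10.0 and 17.2 kb beyond it in the direction of the gene. The Cited2 window held a second match, and the one nearer the interval's midpoint is shown. These matches were several kilobases from the promoter and took either orientation.

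Gene starts were places where boundaries were frequent. The genome was divided into the same 5 kb bins that the boundary list uses, and 511892 bins with at least 50% assembled sequence were kept. Of these, 68907 (13.5%) held exactly 1 start in the window of 10 kb each side. A boundary was called in 2.86% of these bins (2.74 to 2.99), against 1.21% of bins with no start (1.18 to 1.25), 4.05% of bins with several (3.77 to 4.35) and 1.53% of all bins. The rate was higher in single-start bins than in bins without a start on 20 of 20 chromosomes. The intervals allow for counting error alone, as if boundaries were independent of each other, and no difference between these classes was tested.

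The rate was highest at the start itself and just before it. Around 10094 starts with no other protein-coding start within 25 kb, 4.44% of the bins that held the start were boundaries (4.05 to 4.86). The bin before it reached 4.14% and the bin after it 3.07%. By 10 kb the rate was 2.13% upstream and 1.44% on the gene side, and at 15 kb into the gene side it was 1.18%. Between 15 and 100 kb the mean rate was 1.87% upstream and 1.65% on the gene side. The profile of all isolated starts together was thus lopsided, with a dip just inside the gene. It joined genes of different lengths. At 50 kb into the gene side the rate was 0.86% for genes of at least 100 kb and 1.96% for shorter ones.

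This profile differed with the base composition of the promoter. A promoter was called CpG-rich when its 300 bases (250 upstream and 50 downstream) had over 50% G and C and a ratio of observed to expected CpG above 0.6. At 4147 isolated starts with a CpG-rich promoter, 6.92% of start bins were boundaries, with 6.22% in the bin before and 4.05% in the bin after. At the 5947 other isolated starts the values were 2.71%, 2.68% and 2.39%. By 15 kb into the gene side they were 1.01% and 1.30%. The intervals of the CpG-rich and the other starts did not overlap at the start bin or at the bin on either side of it.

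**Figure D1:**
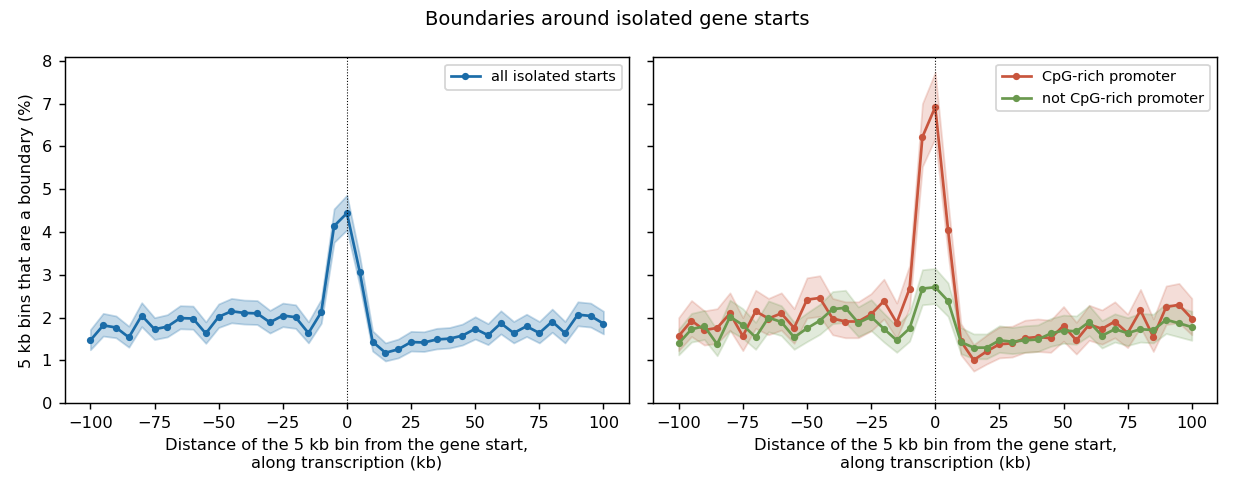
Share of 5 kb bins that are a boundary (vertical axis, %) by distance from isolated gene starts along transcription (horizontal axis, kb), for all 10094 starts (left) and by promoter class (right), with bands for 95% Wilson intervals. The peak reaches 4.44% in the start bin for all starts and 6.92% for CpG-rich promoters, against 2.71% for the others.

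Each boundary carries a score, the authors' own value, which is higher for boundaries of the class they name strong (0.5 and above) than for the weak class (0.2 to 0.5). Single-start boundaries had scores from 0.2 to 3.57, with a median of 0.624 (0.604 to 0.646) and quartiles of 0.368 and 0.997. Of the 1972, 1200 were strong (60.9%, 58.7 to 63.0), where 52.8% of all boundaries were strong. Boundaries with several starts were strong in 69.1% of cases (median score 0.715) and those with none in 47.4% (median 0.472). Single-start boundaries thus lay between the other classes. Their median exceeded that of boundaries without a start on 18 of 20 chromosomes and was below that of boundaries with several starts on 17.

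The score did not fall steadily with distance from a gene start. Single-start boundaries that held the start in the interval had a median of 0.641 (n = 595), those with the start up to 5 kb away 0.615 (n = 906) and those with it 5 to 10 kb away 0.621 (n = 471). Boundaries with no start in the window whose nearest start was 10 to 20 kb away had a median of 0.689 (0.628 to 0.729, n = 738), and at 20 to 50 kb it was 0.617 (n = 1237). Lower medians came with distance beyond that: 0.598 at 50 to 100 kb, 0.473 at 100 to 200 kb and 0.308 past 200 kb (n = 1510). The lower score of boundaries without a start was therefore seen in those more than 100 kb from any start, and the medians at 10 to 50 kb were near or above that of single-start boundaries.

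**Figure D2:**
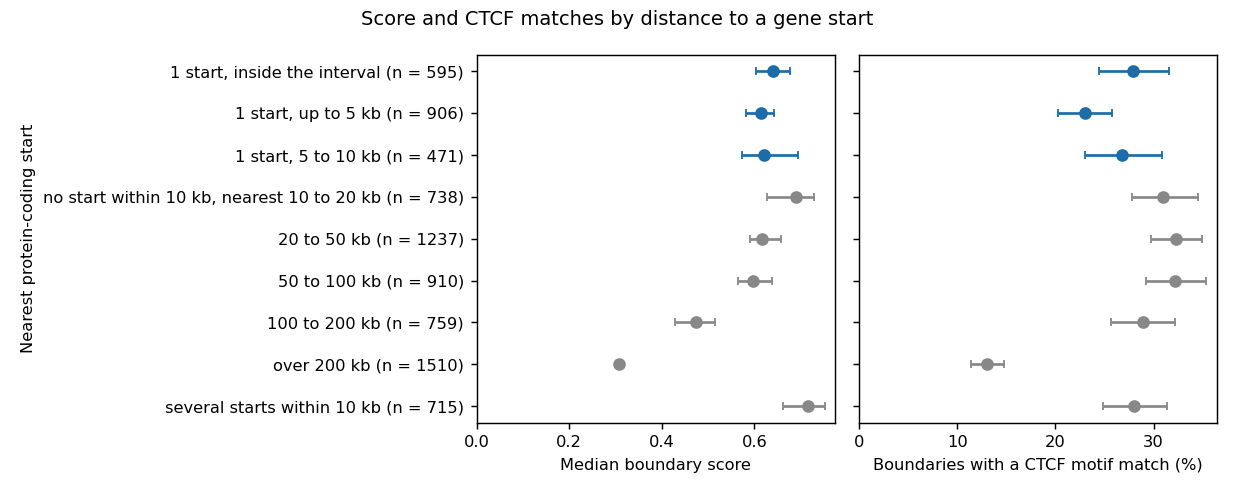
Median boundary score (left) and share of boundaries with a CTCF consensus match in the window, in % (right), by distance of the nearest protein-coding start; blue points are single-start boundaries, grey points all others, and bars are 95% intervals. With 1 start or none in the window, medians stay between 0.598 and 0.689 out to 100 kb and reach 0.308 past 200 kb, and boundaries with several starts have 0.715.

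The threshold of 10 kb cut through a continuous range. Just inside it lay the starts of Plxnd1, a semaphorin receptor gene (9.996 kb from the interval, score 0.736), Lrrtm2, a synaptic adhesion gene (9.977 kb, 0.322), and Spaar, which encodes a small regulatory polypeptide (9.967 kb, 0.608). Just beyond it lay Olfr342 (10.003 kb, 0.229), Ttc32 (10.004 kb, 2.46) and Vps13d (10.005 kb, 0.402).

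Chromosomes differed moderately. On the 19 autosomes between 21.9% and 34.9% of boundaries were single-start boundaries, highest on chromosome 19, and on the X chromosome 18.8% were. The median score on autosomes ranged from 0.538 to 0.722, and 51.3% to 69.3% were strong. On the X chromosome the median was 0.477 and 45.7% of the 81 single-start boundaries were strong, both below every autosome. Other X-chromosomal boundaries also had a low median, 0.351, and the animals were of mixed sex.

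The highest score, 3.57, was at Tifab (chr13:56180001-56185000), a gene of innate immune signalling that runs on the minus strand. The interval lay 1.12 kb upstream of the start and outside the gene, with no CTCF consensus match in the window. It is also the nearest boundary to Neurog1, the gene the reporter is named for, whose start lay 67.2 kb away. Pdcl, which encodes a phosducin-like partner of G protein subunits, followed with 2.9 (chr2:37350001-37355000), where the interval overlapped an exon 4.33 kb into the gene side. Eif1 had 2.61 (chr11:100315001-100320000), Fstl5 2.6 (chr3:76070001-76075000) and Cep112 2.55 (chr11:108425001-108430000), each with the start inside the interval. Rrp15, a ribosomal RNA processing gene, had 2.51 and Rab12 2.46.

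The rest of the 20 highest scores were at genes of varied function. Mzf1, a zinc finger factor gene, had 2.45, Api5, which encodes an inhibitor of apoptosis, 2.44, and Alyref2, an mRNA export gene, 2.43. Lin7c had 2.38 and Usp38, a deubiquitinase gene, 2.33. Fat4, a giant atypical cadherin gene, and Olfr412, an odorant receptor gene, both had 2.31. Azi2, which encodes an adaptor of antiviral kinase signalling, and Ttc12, needed to assemble dynein arms, both had 2.3. Cited2, a coregulator gene, and Pcdh9, a protocadherin gene of 877 kb, had 2.22, while Gabrr3, a GABA receptor subunit gene, and Col12a1, a collagen gene, had 2.21. The 3 lowest scores, all 0.2, were at Lcorl, Ube2g2 and Cttnbp2, which encode a transcription factor, a ubiquitin-conjugating enzyme and a cortactin-binding protein.

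The interval lay more often upstream of its gene start than on the gene side. The start was inside the interval in 595 cases (30.2%, 28.2 to 32.2). The interval lay 1 bin upstream in 498 (25.3%) and 2 bins upstream in 251 (12.7%), against 408 (20.7%) and 220 (11.2%) on the gene side. Among the 66935 single-start bins that were not boundaries the 5 places were nearly even, between 18.4% and 21.1%, with the lowest share farthest upstream. Of the 1377 boundaries that did not hold the start, 749 lay upstream (54.4%, 51.8 to 57), against 47.3% of bins without a boundary. More lay upstream than on the gene side on 15 of 20 chromosomes. Counting midpoints of all 1972, 908 lay on the gene side of the start (46.0%, 43.9 to 48.3), against 52.4% of bins without a boundary.

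**Figure D3:**
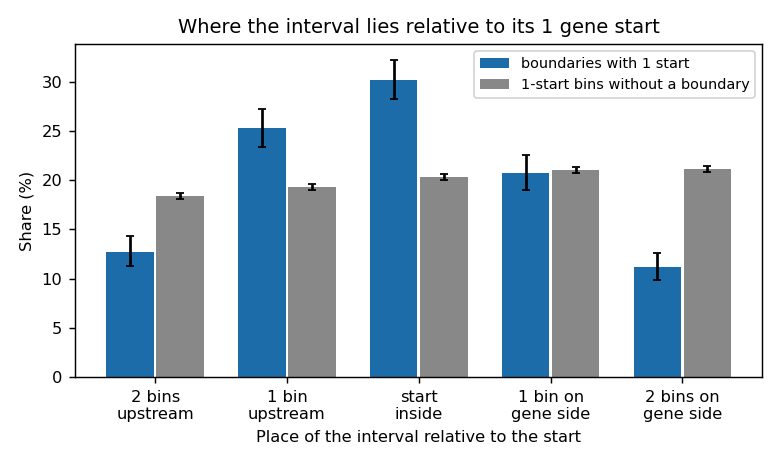
Share of single-start boundaries (blue) and of single-start bins without a boundary (grey), in %, by the place of the 5 kb interval relative to its gene start along transcription; bars with 95% Wilson intervals. Boundaries holding the start make up 30.2%, against 20.3% of bins without a boundary.

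Strand itself showed no lean, with 988 genes on the plus strand (50.1%, 47.9 to 52.3). Where the start lay outside the interval, the median gap was 3.38 kb (3.14 to 3.57). Strong and weak boundaries lay upstream in similar shares, 54.6% and 54.0%, with overlapping intervals. The median score was 0.616 upstream, 0.641 with the start inside and 0.619 on the gene side. The interval overlapped an exon of its own gene in 1006 cases (51%), lay wholly within introns in 158 (8.01%) and outside the gene in 808 (41.0%). Those in introns had the lowest median score, 0.553 (0.459 to 0.644), against 0.636 over exons and 0.616 outside. Mrps28 (1.35), a mitochondrial ribosome gene, and Stk33 (1.56), a kinase gene, were high-scoring cases within introns.

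Genes at single-start boundaries spanned 0.348 kb to 1612 kb, with a median of 26.9 kb (25.1 to 28.6), quartiles of 11.8 and 73.5 kb and a mean of 78.9 kb. The median over single-start bins without a boundary was 23.7 kb, with quartiles of 8.89 and 60.3 kb. Of single-start bins, 2.18% were boundaries where the gene was under 10 kb (410 boundaries), 3.19% at 10 to 30 kb (651), 2.67% at 30 to 100 kb (512), 3.56% at 100 to 300 kb (284) and 4.47% at 300 kb or more (115, 3.74 to 5.34).

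Boundaries at long genes scored lower, although they were more frequent. The median score was 0.685 at genes of 10 to 30 kb and 0.650 at 30 to 100 kb, but 0.515 (0.439 to 0.581) at 100 to 300 kb and 0.436 (0.378 to 0.533) at 300 kb or more. Strong boundaries made up 65.7%, 66.0%, 51.1% and 45.2% of these classes. Genes under 10 kb had a median score of 0.619. Spearman's rho between score and gene length was −0.074 over the 1972 boundaries, given as a description.

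The place of the boundary also went with gene length. Of those that did not hold the start, the share upstream was 52.1% for genes under 10 kb, 50.6% at 10 to 30 kb and 51.1% at 30 to 100 kb. It was 63.7% (56.7 to 70.2) at 100 to 300 kb and 75% (64.8 to 83.0) at 300 kb or more. In single-start bins without a boundary the same shares were 50.2%, 45.6%, 45.7%, 48.0% and 48.5%. The boundary value was the higher one in each class, with the widest differences at genes over 100 kb. For genes under 10 kb the boundary interval (46.5 to 57.6) included the 50.2% of those bins. At 10 to 30 kb and 30 to 100 kb the boundary intervals (45.9 to 55.2 and 45.9 to 56.3) began just above the share of those bins. Around isolated starts of genes of at least 100 kb, 5.95% of start bins and 6.15% of the bins before were boundaries, and 0.656% at 20 kb into the gene.

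**Figure D4:**
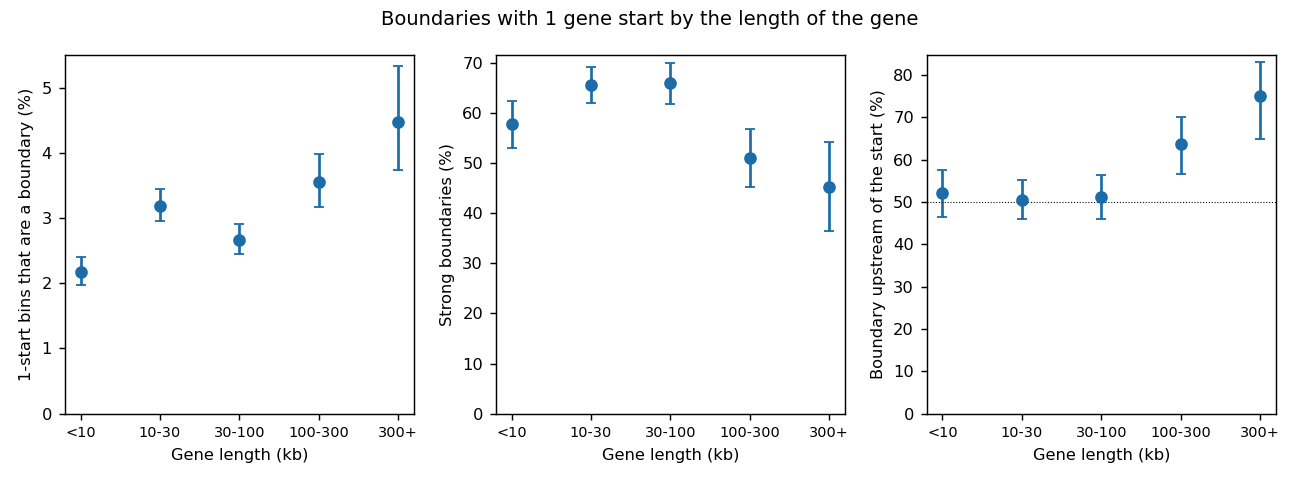
Single-start boundaries by gene length class (horizontal axis, kb): share of single-start bins that are a boundary (left), share of boundaries in the strong class (middle) and share lying upstream among those that do not hold the start (right), all in %, with 95% Wilson intervals. From the shortest to the longest class the boundary rate goes from 2.18% to 4.47%, and the upstream share from 52.1% to 75%.

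The longest genes included several of neuronal adhesion and synapse proteins. Fhit, which encodes a nucleotide hydrolase and spans a fragile site, is 1612 kb long and had a weak boundary (0.236) 7.04 kb into the gene. Gpc5, a glypican gene of 1433 kb, had 0.379, and Il1rapl2, an X-linked synaptic receptor gene of 1276 kb, had 0.251. Lingo2 (1245 kb), Tenm2 (1229 kb) and Csmd3 (1211 kb), all with products at neuronal surfaces, had 0.375, 0.424 and 0.676, so the last alone was strong. The Tenm2 gene held 6 boundary midpoints, the most of any, and Gpc5 held 5 and Fhit 4. The shortest were the histone variant gene H2afb1 (0.348 kb, score 0.24), Gm5788 (0.435 kb, 0.252), 1110057P08Rik (0.465 kb, 0.219) and Gm26661 (0.471 kb, 1.52).

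Few genes reached past the next boundary on the gene side, except among the longest. It was passed in 132 of 1969 cases (6.7%). Of these, 78 were among the 115 genes of 300 kb or more, and 53 were genes of 100 to 300 kb. Boundaries lay at least 60 kb apart, so the shortest genes could not reach it. A gene held no boundary midpoint in 1071 cases, 1 in 841 and more in 60. The single-start boundary itself was counted if its midpoint lay in the gene. For genes of 300 kb or more the domain on the gene side had a median length of 365 kb (330 to 410), against 285 kb upstream, and was the longer one in 71 of 114 cases (62.3%). It held no further protein-coding start in 87.8% of the 115 cases, against 57.4% for the upstream domain. Over all single-start boundaries both sides were alike, with medians of 245 and 240 kb, and the gene-side domain was longer in 51% (48.8 to 53.2).

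Single-start boundaries lay closer to their neighbours than boundaries without a start. The nearest other boundary was at a median of 190 kb (185 to 195), with quartiles of 150 and 250 kb, against 205 kb for all boundaries, 175 kb with several starts and 215 kb with none. The shortest distance was 65 kb, found at 6 genes, among them Dhx9, an RNA helicase gene, and Smarca5, a chromatin remodeller gene. The longest was 885 kb, at Myc, the proto-oncogene that drives growth and division, whose gene-side domain was 1785 kb long and whose nearest other start lay 1062 kb away. Distances over 500 kb occurred in 28 cases (1.42%, 0.984 to 2.04), against 3.8% of boundaries without a start. Strong single-start boundaries had a median distance of 205 kb and weak ones 170 kb, and Spearman's rho between score and this distance was 0.261.

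By the rule, the next protein-coding start always lay outside the window. No like distances were computed for single-start bins without a boundary. The next start lay at a median of 47.2 kb (45.3 to 49.8) from the gene's own start, and beyond 100 kb in 528 cases (26.8%). It lay upstream in 577 cases on the same strand and 528 on the opposite strand, and downstream in 474 and 393. Adgrl3, a latrophilin gene, was 2335 kb from the next start, and Csmd3 2098 kb, while Ube2cbp, a ubiquitin ligase gene, was only 2.2 kb from one that lay outside the window.

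Promoters at single-start boundaries were richer in CpG than those of other candidate genes. Their median G and C content was 58.7% (58.0 to 59.3) and their median CpG ratio 0.705. The comparison was the 15067 other candidate genes, those that are the only start in the window of at least 1 bin but lie at no single-start boundary, with 53.7% and 0.438. CpG-rich promoters made up 1111 of 1972 (56.3%, 54.1 to 58.5), against 35.8% (35.1 to 36.6) of other candidates. All protein-coding genes, which include those never the only start in a window, lay between. Of these 41.4% were CpG-rich, with medians of 55.0% and 0.53. By bins, 4.11% of single-start bins with a CpG-rich promoter were boundaries and 2.06% of the others.

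Within the single-start boundaries the promoter class went with place and gene length more than with score. With a CpG-rich promoter the start was inside the interval in 34.7% (32.0 to 37.6), against 24.3% (21.5 to 27.2) without, and the median gene length was 32.2 kb, against 21.7 kb. The median scores, 0.635 (0.610 to 0.669) and 0.609 (0.570 to 0.637), had overlapping intervals. Of those that did not hold the start, 57.2% lay upstream with a CpG-rich promoter and 51.2% without. CpG-rich promoters were 42.7% of those at genes under 10 kb, 67.6% at genes of 100 to 300 kb and 58.3% at genes of 300 kb or more.

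Shares of promoters with a motif varied with base composition. Each was searched on both strands of the 300 bases, and a match is only a description of the letters. The GC box (GGGCGG), bound by Sp factors, occurred in 54.9% of promoters at single-start boundaries, 40.1% of other candidates and 43.4% of all protein-coding genes, where CpG-rich promoters of the first and second group had 77.9% and 77.6%, and their other promoters 25.2% and 19.1%. The TATA box (TATAAA) occurred in 9.13%, 13.8% and 12.7%. The ETS core (CCGGAAG) occurred in 13.7%, 8.53% and 10.9%, and within CpG-rich promoters of the first and second group in 20.5% and 16.3%. The CCAAT box (CCAAT) occurred in 37.4%, 38.8% and 38.9%, and the E-box CAGCTG, bound by proneural factors, in 15.7%, 15.7% and 15.4%. These shares were close to one another.

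Rarer motifs gave smaller counts. The YY1 motif (ATGGCGGC) was in 63 promoters at single-start boundaries (3.19%, against 1.96% of other candidates and 2.57% of all) and the CREB motif (TGACGTCA) also in 63 (3.19%, 2.29% and 2.45%). The NRF1 motif was in 39 (1.98%, 0.982% and 1.23%) and the ZNF143 motif in 31 (1.57%, 1.06% and 1.36%). Within CpG-rich promoters the ZNF143 shares ran the other way, 1.17% at single-start boundaries and 1.48% of other candidates, and outside them they were 2.09% and 0.828%. The homeodomain core TAATTA, shared by LIM factors such as Lhx2, was in 62 (3.14%, 5.9% and 5.22%), with 1.08% and 1.67% within CpG-rich promoters of the first and second group and 5.81% and 8.27% outside them. The palindrome of EBF, the factor family of Ebf1, was in 9 (0.456%, 1.04% and 1.0%). A promoter without a match lacks only those letters in this window.

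CTCF consensus matches were more frequent at single-start boundaries than in like bins, with a share near that of all boundaries. An exact match on either strand lay in the 25 kb window of 500 single-start boundaries (25.4%, 23.5 to 27.3). The share was 15.9% for single-start bins that were not boundaries, 26.0% for all boundaries, 28.0% for those with several starts and 25.9% for those with none. In the interval itself it was 5.78% (4.83 to 6.9) for single-start boundaries and 7.37% (6.69 to 8.12) for boundaries without a start. By distance, it was 27.9% where the interval held the start, 23.0% where the start lay up to 5 kb away and 26.8% at 5 to 10 kb. For boundaries with no start in the window it was 31.0% to 32.3% where the nearest start lay 10 to 100 kb away, 28.9% at 100 to 200 kb and 13.0% past 200 kb. A match was in 29.5% of windows at genes of 10 to 30 kb and 18.3% at genes of 300 kb or more.

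Boundaries with a match had higher scores, at single starts and elsewhere. Single-start boundaries with a match had a median score of 0.729 (0.682 to 0.797), against 0.602 (0.576 to 0.623) without, and 66.6% against 58.9% were strong. Among all other boundaries the medians were 0.715 and 0.429, with 69.0% and 43.3% strong. Boundaries without a match thus differed most, with 0.602 at a single start and 0.429 elsewhere, though this difference was not tested and the latter include the boundaries far from genes. Of 594 matches, 296 lay on the strand of the gene (49.8%, 45.8 to 53.8), and the median distance from a gene start to its nearest match was 6.33 kb. The window held 1 match in 418 cases, 2 in 71 and more in 11. Rpl38, Cited2 and Kcng4 were named cases with 2.

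Noncoding starts and ends of other genes were often present too. A long noncoding RNA gene started in the window of 422 single-start boundaries (21.4%, 19.6 to 23.3), against 16.6% of single-start bins without a boundary and 8.54% of boundaries without a protein-coding start. In 132 (6.69%) it ran the opposite way from within 2 kb of the coding start. Emx2os at Emx2 and Pax6os1 at Pax6 were noncoding starts in the window, and Id4 had 3. The median score was 0.625 with a noncoding start and 0.622 without. The end of another protein-coding gene lay in 457 windows (23.2%), close to the 22.4% of bins without a boundary, with a median score of 0.655 against 0.617. In 99 cases (5.02%) the gene itself ended before the interval's midpoint.

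Gene families differed in how often they supplied a single-start boundary. Of 17039 candidate genes, 11.6% lay at one (11.1 to 12.1), and 38 lists of families, markers and pathways were read against this share. A gene with other starts close by is the only start in fewer bins, and shares by list were not adjusted for this. The lists overlap, were drawn up with earlier results of these data known and received no test. Together they held 559 of the 1972 genes (28.3%).

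Regulators of the precursor stage had the highest share, 13 of 32 candidates (40.6%, 25.5 to 57.7), with a median score of 1.10 and 9 strong. Ebf1 (2.08) and Ebf3 (1.84), factors of olfactory neuron differentiation, had boundaries 7.32 and 5.56 kb upstream of their starts. Emx2 (1.99) and Lhx2 (0.968), homeobox factors needed in this lineage, had theirs 3.37 kb upstream and 0.72 kb into the gene side. Sox11 (1.84) and Sox4 (1.41), of new neurons, and Sox2 (1.10), of the stem cell state, were all strong. Insm1 (0.818), which promotes the switch from dividing apical progenitors to precursors, and Gadd45g (1.18), a growth arrest gene, had theirs upstream, by 1.92 and 6.68 kb.

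Elavl4 (0.454), an RNA-binding protein gene of neurons, Top2a (0.342), a topoisomerase gene of dividing cells, Kit (0.28), a receptor gene of precursors, and Pax6 (0.207), a homeobox factor gene, had weak boundaries. Of all 35 regulators on the list, 20 had no boundary within 10 kb, among them the proneural gene Neurod1 (nearest at 48.2 kb, score 0.761). Cdkn1c and Tead2 lay at boundaries with several starts.

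Markers of immature neurons had the next highest share, and the lists of other cells had shares nearer the 11.6% of all candidates. Of 19 immature neuron markers 6 were at single-start boundaries (31.6%, 15.4 to 54.0), among them Stmn2 (1.24), a microtubule regulator gene of growing axons, Cd24a (1.13), a surface protein gene, Nrp2 (1.10), a semaphorin receptor gene, and Cxcr4 (0.715), a chemokine receptor gene. Of 24 mature neuron markers 4 were (16.7%, 6.68 to 35.9): Ncam2 (1.59), an adhesion gene, Gnal (1.57), the olfactory G protein gene, Nrp1 (0.847) and Plxna1 (0.575), both receptor genes of axon guidance. The list for horizontal basal cells had Sox9 alone (0.732, 1 of 13). That for sustentacular, gland and microvillar cells had Hes1 (0.298, 1 of 20), and that for immune, endothelial, stromal and glial cells Col1a1 (0.253, 1 of 15). Which cells express these genes was not examined here. The intervals of all 5 marker lists except the immature neuron list included 11.6%.

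**Figure D5:**
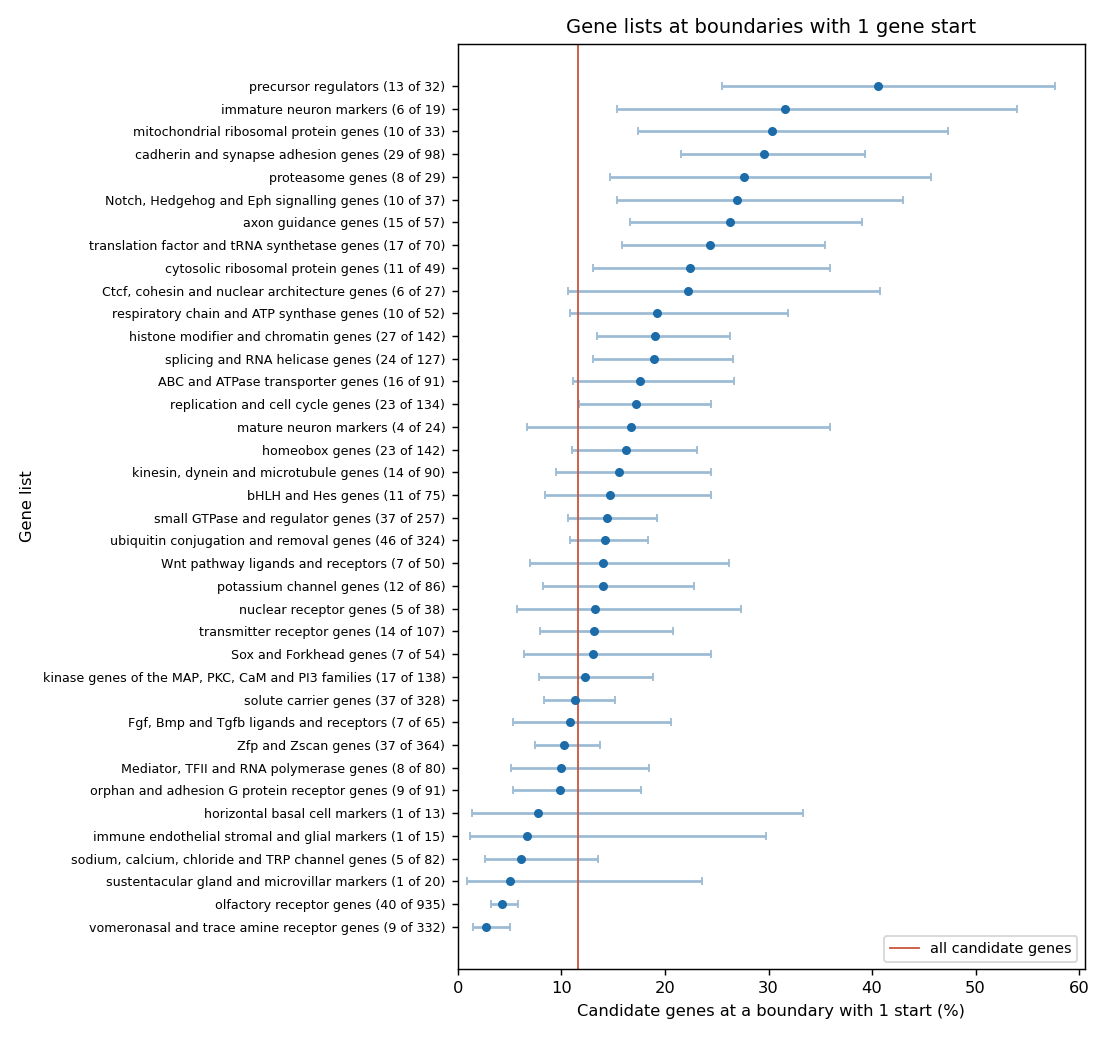
Share of candidate genes in each of 38 lists that lie at a single-start boundary (horizontal axis, %), with 95% Wilson intervals; the red line marks 11.6%, the share over all candidates. Precursor regulators are at 40.6% and the receptor families of the olfactory and vomeronasal systems at 4.28% and 2.71%.

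Genes of adhesion and axon guidance were frequent. Cadherin and synapse adhesion genes were at single-start boundaries in 29 of 98 cases (29.6%, 21.5 to 39.3), but only 12 were strong and the median score was 0.455. Fat4, Pcdh9 and Ncam2 led them, followed by Nectin3 (0.935), a junction protein gene. Axon guidance genes were there in 15 of 57 cases (26.3%, 16.6 to 39.0), 12 of them strong. Their median length was 364 kb, and the boundary lay upstream in 11, held the start in 4 and lay on the gene side in none. Plxna4 (1.69) and Robo2 (1.38), receptor genes of 444 and 520 kb, had boundaries 6.81 and 3.18 kb upstream, and Sema6a (1.03), a semaphorin gene, 1.13 kb upstream.

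Signalling families varied. Notch, Hedgehog and Eph genes were there in 10 of 37 cases (27.0%, 15.4 to 43.0), with 9 strong. They included Shh (1.73), a secreted morphogen gene, with a boundary 7.26 kb into the gene side, Epha4 (1.23) and Efna5 (1.01), a receptor and a ligand gene of axon repulsion, and Notch4 (0.97). Wnt pathway ligands and receptors (7 of 50, 14.0%) and Fgf, Bmp and Tgfb genes (7 of 65, 10.8%) were near the share of all candidates. Wnt7b (1.42), Fzd8 (0.841), Fzd5 (0.681) and Sfrp2 (0.425) were the highest of the former and Nodal (0.842), Gdf6 (0.621), Fst (0.604) and Fgf1 (0.551) of the latter. Genes of small GTPases and their regulators (37 of 257, 14.4%) were led by Rab12, Arf2 (1.61), Tbc1d7 (1.56) and Rab39 (1.50). Kinase genes (17 of 138, 12.3%) were led by Nek9 (1.87), Map3k7 (1.75), Pik3c3 (1.58) and Stk33.

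Housekeeping families of gene expression were above the share of all candidates, and most of their boundaries were strong. Translation factor and tRNA synthetase genes were there in 17 of 70 cases (24.3%, 15.8 to 35.5), with 15 strong, led by Eif1, the synthetase genes Tars (1.88) and Nars2 (1.83), and Eif3d (1.46). Cytosolic ribosomal protein genes had 11 of 49 (22.4%, 13.0 to 35.9), 9 strong, with Rpl38 (1.60), Rps3 (1.52) and Rplp1 (1.51). Mitochondrial ribosomal protein genes had 10 of 33 (30.3%, 17.4 to 47.3), 6 strong, with Mrps14 (1.91), Mrps22 (1.51), Mrps23 (1.40) and Mrps28. Proteasome genes had 8 of 29 (27.6%, 14.7 to 45.7), 7 strong, with the subunit genes Psmd6 (2.02), Psmd7 (1.91), Psmc1 (1.66) and Psmd3 (1.22).

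Splicing and RNA helicase genes had 24 of 127 (18.9%, 13.0 to 26.6), 18 strong, with Dhx36 (1.53), Dhx9 (1.49), Sf3b5 (1.49) and Rbm34 (1.48). Respiratory chain and ATP synthase genes had 10 of 52 (19.2%, 10.8 to 31.9), with Ndufa10 (1.19), Cox6a2 (1.07), Sdhb (0.743) and Uqcrfs1 (0.631). Mediator, TFII and RNA polymerase genes did not stand above all candidates, with 8 of 80 (10.0%), led by Supt20 (1.36), Gtf2a1 (1.01), Taf4b (0.73) and Taf9b (0.578). Ubiquitin conjugation and removal genes (46 of 324, 14.2%) were led by Usp38, Trim32 (2.02), Ube2cbp (1.39) and Otulin (1.29).

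Genes of chromatin and the cell cycle were moderately frequent. Histone modifier and chromatin genes had 27 of 142 (19%, 13.4 to 26.3), of which 12 were strong, with Phf12 (1.78), Crebbp (1.00), an acetyltransferase gene, and the remodeller genes Chd4 (0.991) and Chd1l (0.908). Replication and cell cycle genes had 23 of 134 (17.2%, 11.7 to 24.4), 18 strong. They included Plk2 (2.04), Cdc25a (1.76), a phosphatase gene of cell cycle entry, and Mad2l1 (1.57), of the spindle checkpoint. The count includes Cdk5rap1 (1.93), whose part in the cell cycle was not examined here. Among the genes of CTCF, cohesin and nuclear architecture 6 of 27 were there (22.2%, 10.6 to 40.8), including Pds5a (0.976) and Nipbl (0.815), a regulator and the loader of cohesin, Smc5 (0.671) and Hdac8 (0.523). Kinesin, dynein and microtubule genes (14 of 90, 15.6%) included Dnah5 (1.44), Dnah7a (0.987) and Kif2c (0.877), motor protein genes.

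Transcription factor families, which share some genes with the precursor list, had shares from 10.2% to 16.2%. Homeobox genes had 23 of 142 (16.2%, 11 to 23.1), of which 9 were strong, with Pou3f2 (1.51), of neurons, among the highest beside Emx2 and Lhx2. Sox and Forkhead genes had 7 of 54 (13.0%), with Foxd4 (1.48) beside the Sox genes given above. The bHLH and Hes genes had 11 of 75 (14.7%), with Id2 (1.28) and Id4 (0.847), which encode inhibitors of bHLH factors, Myc (0.899) and Tcf4 (0.875), an E protein gene. Nuclear receptor genes had 5 of 38 (13.2%), with Nr2c1 (0.753), Nr2e3 (0.375), Nr4a3 (0.326) and Thrb (0.236) the highest. Zfp and Zscan genes had 37 of 364 (10.2%), led by Zfp982 (2.19), Zfp407 (2.14), Zfp637 (1.92) and Zfp703 (1.37).

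Channel, transporter and receptor families had shares from 6.1% to 17.6%. Potassium channel genes had 12 of 86 (14.0%), with Kcnh1 (1.54), Kcng4 (0.722), Kcnk18 (0.712) and Kcnc1 (0.671), and transmitter receptor genes 14 of 107 (13.1%), with Gabrr3, Grm4 (1.93), Htr7 (1.59) and Grik4 (1.33). Sodium, calcium, chloride and TRP channel genes had 5 of 82 (6.1%, 2.63 to 13.5), including Scn1a (1.36), Trpm2 (0.73), Clcn5 (0.614) and Scn4b (0.565). Solute carrier genes had 37 of 328 (11.3%), led by Slc10a1 (2.00), Slc38a5 (1.50), Slc29a3 (1.49) and Slc25a26 (1.39). ABC and ATPase transporter genes had 16 of 91 (17.6%), with Abcc12 (1.28), Abcc2 (0.921) and Atp6v0e (0.821), and orphan and adhesion G protein receptor genes 9 of 91 (9.89%), with Gpr173 (0.939), Gpr171 (0.811), Adgrl3 (0.809) and Adgrl2 (0.671).

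Chemosensory receptor genes had the lowest shares. Of 935 candidate olfactory receptor genes 40 lay at a single-start boundary (4.28%, 3.16 to 5.77), with a median score of 0.437 and 15 strong. Olfr412, Olfr9 (2.08), Olfr279 (2.02) and Olfr1177-ps (1.79) were the highest, and the last is named as a pseudogene although its record is protein-coding. Vomeronasal and trace amine receptor genes had 9 of 332 (2.71%, 1.43 to 5.07), 2 of them strong, Vmn1r178 (1.29) and Vmn2r7 (0.869), followed by Vmn2r99 (0.313) and Vmn2r76 (0.309).

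Neighbouring single-start boundaries enclosed 565 of the 7821 domains between adjacent boundaries (7.22%, 6.67 to 7.82). Their median length was 225 kb, against 265 kb for all domains. Both genes ran into the domain in 136 (24.1%), both ran out of it in 129 (22.8%) and both ran the same way in 300 (53.1%, 49.0 to 57.2). Medians of the 3 layouts were 238, 220 and 225 kb, with overlapping intervals. The domain from Arf2 to Mapt, the tau gene, was 260 kb long, with scores of 1.61 and 1.29. That from Stmn2 to Mrps28 was 405 kb long, with 1.24 and 1.35, and both genes ran into it. That from Nek2, a centrosomal kinase gene, to Kcnh1 was 365 kb long, with 1.20 and 1.54.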

How the data were processed

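The authors pooled both replicates into 1 contact matrix before calling boundaries, per the series' design text, on GRCm38, per the submitters' processing notes. For aligner, caller, window and cutoffs, details were not given in the sources used here. Each deposited boundary score is the authors' own value per 5 kb interval, with no stated unit. Contact matrices were not analysed here, read depth is unknown, and no replicate has its own list, so no spread between replicates and no test could be given. Starts came from GENCODE M21 and sequence from GRCm38.p6, read with Python 3.11.15, numpy 2.4.6, pandas 2.3.3 and scipy 1.17.1. The code was tested on simulated data.

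Shares carry Wilson 95% intervals and medians exact binomial 95% intervals from order statistics, for counting error only. Distances run between interval midpoints for boundaries and from the interval's edge for gene starts. The boundaries and the gene lists were chosen with earlier results of these data known. Genes were named by rule: the 20 highest scores, up to 4 per list by score, all precursor regulators, the 6 longest and 4 shortest genes, the 3 lowest scores, the 3 starts on either side of 10 kb, the genes whose sequences are shown, and those at several boundaries, of which there were 0. Genes at extreme distances, ends of shared domains and regulators away from boundaries were chosen after their values were seen. Some genes picked by these criteria are not reported here.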

Additional observations from a re-analysis of the deposited data

How the results depend on the processing

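Under 7 alternatives, 42 values were recomputed, of which 24 stayed within the 95% interval given above and 18 moved outside it. Reversal was defined only for the share of midpoints on the gene side, and there 0 values reversed. The cause of a move was not tested beyond what each alternative's construction changes. With the interval alone (0 kb), 10.1% of boundaries held exactly 1 start, 63.9% of these were strong with a median score of 0.652, 48.5% had their midpoint on the gene side of the start (46.0% at 10 kb), the median gene length was 23.2 kb, the nearest boundary was at 180 kb and 28.5% had a CTCF match. With 5 kb each side, a window chosen after seeing the data, the share was 21.7% and the gene length 24.3 kb, and with 25 kb they were 29.3% and 33.6 kb. Counting every basic protein-coding transcript start, and keeping boundaries whose starts in the window all belonged to 1 gene, gave 27.3% and 29.4 kb. Among strong boundaries alone the share was 29.0%, the median score 0.892 and the CTCF share 27.8%. The nearest other strong boundary was then at 280 kb, since weak boundaries were left out as neighbours. Allowing 1 mismatch in the CTCF motif raised its share to 92.7%, where all boundaries had 89.1%. Merging boundaries within 50 kb, not counted among these, could change nothing, since no boundaries lay closer than 60 kb, and autosomes alone moved none of the 7 values. No paired analysis was possible because the list was called on both replicates combined, and for the same reason no replicate could be left out. How far scores would vary between replicates or with depth is unknown.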
